A study of Rattus norvegicus with 6 samples.

Results

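The Hippo core, TEAD and VGLL genes described here are 10 rat genes, taken from the deposited table of 23091 genes by their symbol. They are Yap1, Wwtr1, Lats1, Lats2, Tead1, Tead2, Tead3, Tead4, Vgll3 and Dchs1. Each symbol stood on 1 gene identifier, and all 10 had enough counts to be tested. The samples were wild-type rat mesenchymal stem cells, stromal cells of the marrow that grow attached to the dish, held in neural differentiation medium for 7 days. In 3 of them, labelled CK, the medium contained the solvent DMSO, and in the other 3 it contained CYSP, which the labels do not spell out. The labels give no strain or age and do not say whether the 3 samples of a group were separate cultures or animals, so p-values measure the spread between these samples only, which may be technical.

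The Hippo pathway is a kinase cascade that senses cell contact, shape and tension. Its last kinases, LATS1 and LATS2, phosphorylate the coactivators YAP and TAZ, which are then held in the cytoplasm or degraded. YAP and TAZ cannot bind DNA by themselves and reach their target genes through the TEAD transcription factors. VGLL proteins bind the same TEAD factors, and the large cadherin DCHS1 is a ligand of FAT4 on neighbouring cells. In mesenchymal stromal cells the pathway is known for its part in the response to stiff or soft surroundings.

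Of the 10 genes, 3 rose and 7 fell in CYSP (quasi-likelihood F test of edgeR, p-values adjusted by Benjamini-Hochberg over 12623 genes, threshold 0.05). Among all tested genes 38.2% rose and 37.8% fell, so passing the test was common. The direction of Yap1, counted among the 3 that rose, depends on the scaling: with FPKM (read density per gene length and library) rescaled to the same total in each sample (an alternative chosen after seeing the data), Yap1 fell, and 2 genes rose and 8 fell. That rescaling moved the median log2 fold change of all genes to -0.3, and 30.6% of all calls were then increases, against 50.3% here. Of the 10 genes 6 changed by more than 2-fold in a test against that size (edgeR's glmTreat), 2 upward and 4 downward, whereas 21.6% of all tested genes did. The 3 CYSP samples lay wholly above or below the 3 CK samples for each of the 10 genes, as for 77% of all tested genes. The median absolute log2 fold change was 1.63 over the 10 genes and 0.53 over all tested genes. The 10 genes were chosen with earlier results of these data known, so these contrasts with all genes describe this selection only. Of the 5 kinase core and adaptor genes outside the set, 0 rose and 0 fell by more than 2-fold in the same test. In the plot of fold changes, Vgll3, Tead4, Tead3, Lats2, Tead2 and Dchs1 lie far from 0, and Yap1, Wwtr1, Lats1 and Tead1 near it.

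**Figure D1:**
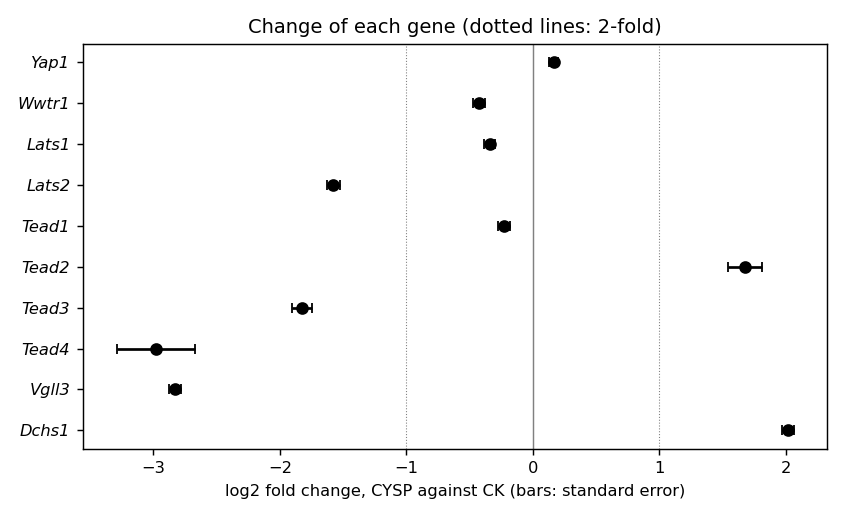
Log2 fold change of each gene in CYSP against CK (horizontal axis), as a point with its standard error, over 3 samples per group. The values run from -2.98 for Tead4 to 2.02 for Dchs1, and 4 of the 10 genes lie between the dotted lines that mark a 2-fold change.

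The libraries held 15060933 to 17244700 counts. Levels are given as CPM, counts scaled to a fixed library total with edgeR's TMM factors. A gene without counts could still stand at up to 0.205 CPM (3 counts) in the shallowest library, a limit for counting error only. Of 10 marrow stromal markers all were detected, with a summed level of 68009 to 70253 CPM in CK and 28763 to 29690 CPM in CYSP. Col1a1 and Col1a2 alone gave 65713 to 67910 CPM of that sum in CK and 14385 to 15561 CPM in CYSP, and both fell. Of the 10 markers 6 rose (Thy1, Eng, Nt5e, Pdgfra, Lum and Dcn) and 4 fell, beside 38.2% and 37.8% of all tested genes. The median of their log2 fold changes was 0.44. All 10 leukocyte and macrophage markers were also detected, with 9 of 10 lower in CYSP, beside 37.8% of all tested genes. Their summed level was 1697 to 1925 CPM in CK against 514 to 521 CPM in CYSP. Lyz2 (mean 883 CPM in CK and 108 in CYSP) and Adgre1 (554 and 212) had the highest levels among them. The summed level of 10 neuron markers was 12.4 to 13.8 CPM in CK and 87.7 to 91.4 CPM in CYSP, with Rbfox3 and Elavl4 at 0 in every sample. Only 3 of these 10 were tested, of which Snap25 (0.0201 to 48.8 CPM) and Tubb3 (8.67 to 37.8 CPM) rose and Map2 fell (4.27 to 1.35 CPM), and the means of the others stayed under 1 CPM. These marker levels move with the treatment, as do all results below, and their part in those results was not tested. In such bulk RNA, fewer cells of a type and less RNA per cell cannot be told apart.

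With TMM scaling the coactivator genes changed little. Yap1, which encodes YAP, had 184, 194 and 196 CPM in the CK samples and 211, 220 and 213 CPM in the CYSP samples. The groups did not overlap, but the CYSP samples were only 1.12-fold higher (log2 fold change 0.17, SE 0.036, edgeR adjusted p = 2.5e-05), and 81.6% of all tested genes had a larger absolute change. The call was lost on the FPKM scale as the authors normalized it (log2 fold change 0.08, limma adjusted p = 0.083) and turned to a decrease with FPKM rescaled to a fixed total (-0.15, limma adjusted p = 0.005), while the authors' deposited table gives Yap1 an adjusted p of 0.7. Wwtr1, which encodes TAZ, had 105, 106 and 111 CPM in CK and 83.3, 77.1 and 78.9 CPM in CYSP. All CYSP samples were lower, by a factor of 1.34 (log2 fold change -0.43, SE 0.047, edgeR adjusted p = 2.58e-13). The size of the Wwtr1 decrease also depended on the scaling. With FPKM rescaled to a fixed total the log2 fold change was -0.73 (limma adjusted p = 2.1e-07). The fitted common coefficient of variation between samples was 0.0393, and the F test also fitted a spread for each gene. An alternative assumed 0.2 for every gene and used edgeR's likelihood ratio test in place of the F test. With it neither coactivator passed (adjusted p = 0.6 for Yap1 and 0.13 for Wwtr1).

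Per unit of length, Yap1 stood at 44.6 ± 1.24 FPKM in CK and 47.2 ± 1.02 FPKM in CYSP (mean ± SD, n = 3 per group). Wwtr1 stood at 23.8 ± 0.673 FPKM in CK and 16.7 ± 0.585 FPKM in CYSP. The log2 ratio of Wwtr1 to Yap1 was -0.91 ± 0.026 in CK and -1.5 ± 0.08 in CYSP, so Yap1 was the more abundant transcript in all 6 samples and by more in CYSP. This ratio is 1 of 8 sums, shares and ratios compared between the groups with a two-sided exact permutation test over samples. With 3 samples against 3 the exact permutation test cannot go below p = 0.1, and each of the 8 reached that value (adjusted exact p = 0.1). The summed FPKM of Yap1 and Wwtr1 was 68.4 ± 1.81 in CK and 63.9 ± 0.531 in CYSP, a log2 difference of -0.1, which became -0.02 when CPM were summed and -0.33 when FPKM were rescaled to the same total in each sample.

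The 2 LATS kinase genes moved by unequal amounts. Lats1 had 124, 120 and 129 CPM in CK and 94.7, 100 and 100 CPM in CYSP, a 1.26-fold lower level (log2 fold change -0.34, SE 0.044, edgeR adjusted p = 1.17e-10) whose call was lost when a coefficient of variation of 0.2 was assumed (adjusted p = 0.25). Lats2, a kinase gene that is itself a target of YAP and TAZ, had 131, 123 and 131 CPM in CK and 44.6, 45.2 and 39.2 CPM in CYSP. Lats2 was thus 2.98-fold lower in CYSP (log2 fold change -1.58, SE 0.052, edgeR adjusted p = 1.86e-42) and passed the test against a 2-fold change (adjusted p = 1.22e-17).

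The order of the 2 kinase genes per unit of length turned over between the groups. In CK, Lats2 was above Lats1, at 26.5 ± 0.913 against 18.1 ± 0.655 FPKM. In CYSP it was below, at 8.39 ± 0.644 against 13.5 ± 0.509 FPKM. The log2 ratio of Lats2 to Lats1 was 0.59, 0.55 and 0.53 in the CK samples and -0.58, -0.64 and -0.85 in the CYSP samples, positive in all CK samples and negative in all CYSP samples (exact permutation p = 0.1, the smallest possible).

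**Figure D2:**
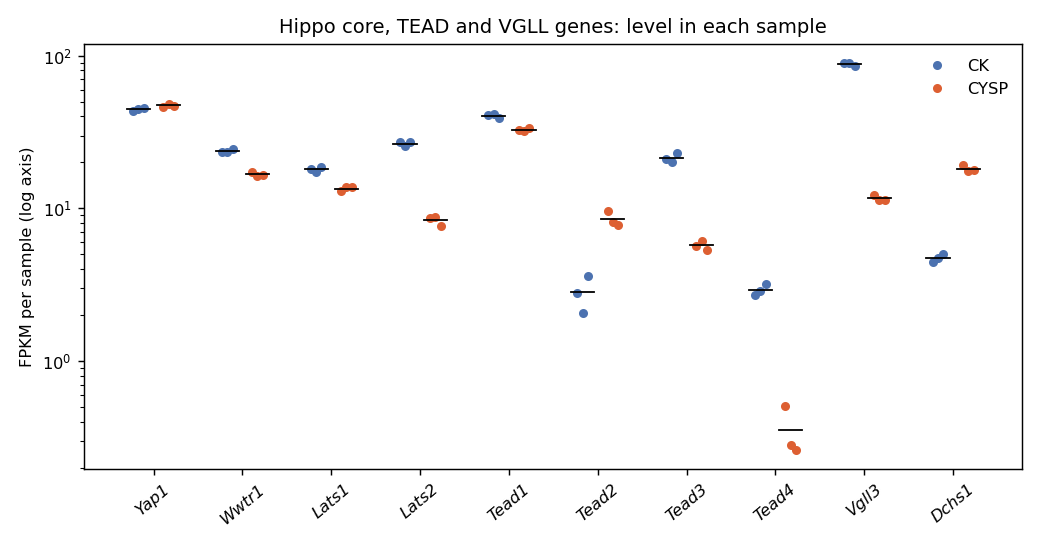
FPKM of each of the 10 genes in every sample on a log axis, with a bar at the group mean, for 3 CK and 3 CYSP samples. The groups do not overlap for any gene, and Vgll3 goes from the highest level in CK (87.9 FPKM) to 11.6 FPKM in CYSP.

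The 4 TEAD genes, which encode DNA-binding partners of YAP and TAZ, changed in different directions. Tead1 had 89.5, 90.1 and 86.2 CPM in CK and 76, 74.5 and 76.6 CPM in CYSP. That difference, 1.17-fold lower (log2 fold change -0.23, SE 0.048, edgeR adjusted p = 1.98e-05), was lost with an assumed coefficient of variation of 0.2 (adjusted p = 0.46). Tead2, a TEAD gene known for expression in early embryos and neural precursors, rose. It had 5.81, 4.27 and 7.49 CPM in CK and 21.3, 17.9 and 17.1 CPM in CYSP, a 3.2-fold increase (log2 fold change 1.68, SE 0.13, edgeR adjusted p = 4.26e-17).

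Tead3 fell from 52.6, 50.2 and 57.1 CPM in CK to 15.1, 16 and 14.1 CPM in CYSP, a 3.54-fold decrease (log2 fold change -1.82, SE 0.078, edgeR adjusted p = 5.22e-35). Tead4, a TEAD gene known for its role in trophectoderm and in muscle, was scarce in both groups. It had 74, 71 and 81 counts in the CK samples and 13, 7 and 6 counts in the CYSP samples, that is 4.51 ± 0.361 and 0.557 ± 0.204 CPM. All CYSP samples were lower (log2 fold change -2.98, SE 0.31, edgeR adjusted p = 4.57e-14). The size of the Tead4 change is less certain than the others, and it was -1.54 on the log2(FPKM + 1) scale, which understates changes of low genes. On that scale Tead2 no longer passed the test against a 2-fold change.

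In sum the TEAD genes had 67.7 ± 1.32 FPKM in CK and 47.2 ± 1.04 FPKM in CYSP, or 69.7% of the CK level. This log2 difference of -0.52 depended on the scaling. It became -0.47 when CPM were summed and -0.75 when FPKM were rescaled to the same total in each sample. Tead1 supplied most of the FPKM sum in every sample, 59.9 ± 2.67% in CK and 69.2 ± 2.06% in CYSP. The places behind it changed hands. The share of Tead3 was 31.2%, 30.4% and 33.3% in the CK samples and 11.8%, 13.1% and 11.4% in the CYSP samples. The share of Tead2 was 4.13%, 3.1% and 5.23% in CK and 19.8%, 17.4% and 16.6% in CYSP. Tead2 was thus below Tead3 in all CK samples and above it in all CYSP samples, while the share of Tead4 went from 4.33 ± 0.302% to 0.743 ± 0.274%. Each of these shares differed between the groups with the smallest exact permutation p that the design allows, 0.1.

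**Figure D3:**
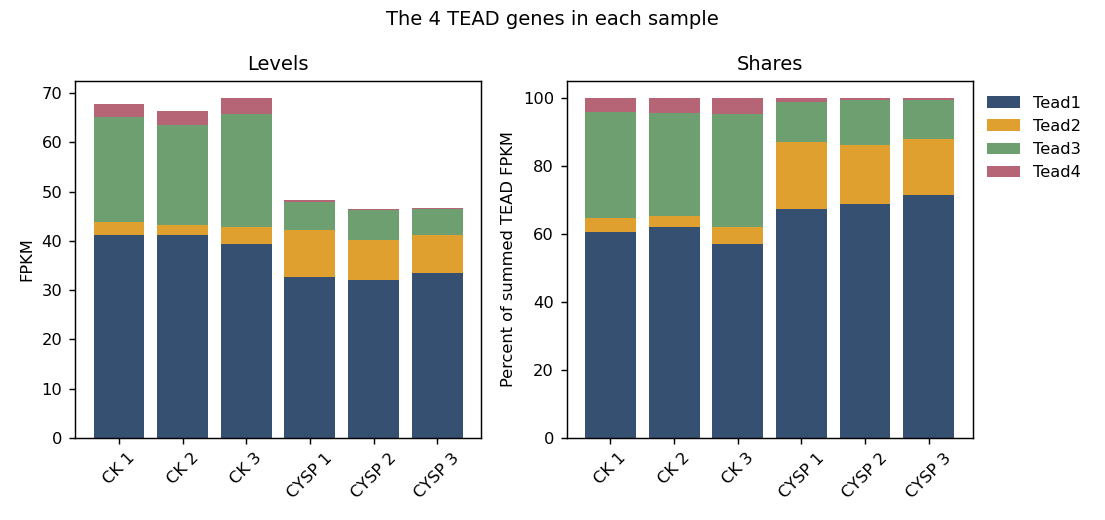
Stacked FPKM of Tead1, Tead2, Tead3 and Tead4 in each sample (left) and the same as percent of their sum (right). The sum is 66.4 to 69 FPKM in the CK samples and 46.5 to 48.4 FPKM in the CYSP samples, with a wider Tead2 band and a narrower Tead3 band in CYSP.

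Vgll3, a cofactor that binds TEAD through its Tondu domain, was the most abundant of the 10 transcripts in CK. It had 215, 214 and 207 CPM in CK and 31.4, 29 and 28.9 CPM in CYSP. The CYSP samples were 7.11-fold lower (log2 fold change -2.83, SE 0.049, edgeR adjusted p = 6.87e-62), and 7.48% of all tested genes had a larger absolute change. Of the other VGLL genes, Vgll4, an inhibitor of TEAD activity, had 16.6 ± 1.5 CPM in CK and 13.3 ± 2.14 CPM in CYSP with overlapping groups (log2 fold change -0.33, edgeR adjusted p = 0.0058). That call was lost without CK replicate 1 (edgeR adjusted p = 0.054) and without CYSP replicate 1 (edgeR adjusted p = 0.069). Vgll2, a muscle gene, had 1 count in CK and 0 in CYSP, and Vgll1 is not analysed here.

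Dchs1 was the gene that rose most. It had 45.7, 48.4 and 51.2 CPM in CK and 207, 189 and 191 CPM in CYSP, a 4.05-fold increase (log2 fold change 2.02, SE 0.047, edgeR adjusted p = 1.81e-52). The receptor gene Fat4 went the other way, with 138 ± 7.06 CPM in CK and 61 ± 0.385 CPM in CYSP (a log2 fold change of -1.18, SE 0.047, edgeR adjusted p = 6.44e-37). Per unit of length Fat4 was above Dchs1 in CK, at 8.54 ± 0.435 against 4.76 ± 0.271 FPKM. In CYSP it was below, at 3.56 ± 0.026 against 18.2 ± 0.858 FPKM. Of 6 further genes listed for this cadherin branch 4 were tested and all 4 fell, beside 37.8% of all tested genes. They were Fat1, Fat3, Fat4 and Fjx1, the last of which is known as a modulator of FAT and DCHS cadherins. Fjx1 is also in the list of YAP/TAZ targets used below and is counted in both lists. Dchs2, with 2 counts in CK and 5 in CYSP, and Fat2, with 1 in each group, were not tested.

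By FPKM the order from high to low in CK was Vgll3, Yap1, Tead1, Lats2, Wwtr1, Tead3, Lats1, Dchs1, Tead4 and Tead2. The samples of neighbours in that order did not overlap except those of Tead4 and Tead2. In CYSP the order was Yap1, Tead1, Dchs1, Wwtr1, Lats1, Vgll3, Tead2, Lats2, Tead3 and Tead4, where only the neighbours Tead2 and Lats2 overlapped. Yap1 and Tead1 thus kept high places, Vgll3 and Lats2 fell in the order, and Dchs1 and Tead2 climbed.

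Promoter sequences from RefSeq (GRCr8) were matched for 5 of the 10 genes, Yap1, Wwtr1, Lats1, Tead3 and Vgll3, and searched for GGAATG, a core of the TEAD recognition sequence, on both strands (CATTCC on the other) in the 250 bases before the start of transcription. Those of Yap1 and Vgll3 held it, and those of Wwtr1, Lats1 and Tead3 did not. Counted by promoter window, 2 of 6 held it for the genes described here and 5 of 15 for the YAP/TAZ targets. For the other Hippo pathway genes 9 of 62 windows did (14.5%), near the 12.1% of all 33469 promoter windows of this length. The windows of Vgll3, which fell 7.11-fold, and of Yap1, which hardly moved, are shown beside those of the target genes Ccn2 and Ccn1, with the motif in capitals and all read 5′ to 3′ on the strand of the gene. They lie at chr11:17089342-17089591 (plus strand) for Vgll3, chr8:13451438-13451687 (minus) for Yap1, chr1:22624615-22624864 (minus) for Ccn2 and chr2:237225690-237225939 (minus) for Ccn1. Vgll3 has a further RefSeq start without the motif in its window.
Vgll3: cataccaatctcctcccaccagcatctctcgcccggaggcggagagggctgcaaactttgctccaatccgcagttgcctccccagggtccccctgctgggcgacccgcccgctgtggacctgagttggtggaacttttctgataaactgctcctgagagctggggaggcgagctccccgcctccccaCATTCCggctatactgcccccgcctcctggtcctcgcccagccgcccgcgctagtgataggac
Yap1: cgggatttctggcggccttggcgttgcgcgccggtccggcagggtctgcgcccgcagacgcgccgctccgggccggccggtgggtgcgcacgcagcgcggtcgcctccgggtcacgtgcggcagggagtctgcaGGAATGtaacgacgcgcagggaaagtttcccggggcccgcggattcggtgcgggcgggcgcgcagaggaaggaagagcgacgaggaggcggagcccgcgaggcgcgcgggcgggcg
Ccn2: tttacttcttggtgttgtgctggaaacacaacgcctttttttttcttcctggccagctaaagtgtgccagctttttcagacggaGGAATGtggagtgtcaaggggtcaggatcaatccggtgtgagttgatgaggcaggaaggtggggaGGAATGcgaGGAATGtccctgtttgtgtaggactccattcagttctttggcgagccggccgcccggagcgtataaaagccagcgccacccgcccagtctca
Ccn1: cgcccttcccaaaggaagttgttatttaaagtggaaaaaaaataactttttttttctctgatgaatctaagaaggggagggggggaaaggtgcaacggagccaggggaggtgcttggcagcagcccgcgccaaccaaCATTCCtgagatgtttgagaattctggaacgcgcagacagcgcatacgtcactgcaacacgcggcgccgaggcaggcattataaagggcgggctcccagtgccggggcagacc
The first base of the motif stood 63 bases before the start in Vgll3, 116 in Yap1 and 113 in Ccn1. Ccn2 held 3 copies, at 166, 101 and 92 bases before the start. Yap1 and Vgll3, with 1 copy each, had log2 fold changes of 0.17 and -2.83. A match of these letters describes the sequence and does not show that a factor binds there.

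Of 61 other Hippo pathway genes listed, 59 were found and 54 tested. In CYSP 34 of these were lower, 10 were higher and 10 did not pass. Among all tested genes 37.8% were lower and 38.2% higher, 76.1% in either direction, so passing at all was about as common. The 54 genes had a median log2 fold change of -0.27, against 0.0046 over all tested genes. By more than 2-fold, 7 of the 54 fell and 0 rose, beside 9.64% of all tested genes that fell and 11.9% that rose. The share that fell this far was thus near that of all genes. In the kinase core, Stk4, which encodes the kinase MST1, rose (log2 fold change 0.38, and 0.061 with limma adjusted p = 0.43 with FPKM rescaled to a fixed total) and its paralogue Stk3, encoding MST2, fell (-0.44). The adaptor genes Sav1 and Mob1a both fell, Sav1 from 67.5 ± 3.16 to 38.8 ± 0.392 CPM and Mob1a from 189 ± 7.81 to 95 ± 3.25 CPM, and Mob1b did not pass (log2 fold change 0.05, edgeR adjusted p = 0.49), but was lower with FPKM rescaled to a fixed total (-0.26, limma adjusted p = 0.0053). With an assumed coefficient of variation of 0.2, Stk3 and Stk4 lost their calls (adjusted p = 0.13 and 0.19).

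Some upstream scaffold genes and a LATS inhibitor gene fell, with values further from 0 than those of the kinase core. Of the 8 tested upstream scaffold genes 5 fell and 3 rose, beside 37.8% and 38.2% of all tested genes. Amot, a junction scaffold that binds YAP, fell from 95.3 ± 2.34 to 18.4 ± 1.03 CPM, whereas its paralogue Amotl1 rose from 32.8 ± 1.39 to 55.8 ± 2.08 CPM. Wwc2, of the KIBRA family that activates LATS, fell from 132 ± 1.52 to 29.4 ± 0.916 CPM. Ajuba, a LIM protein that restrains LATS kinases, fell from 57 ± 3.26 to 12.2 ± 1.07 CPM. Ywhah, a 14-3-3 protein of the family that holds phosphorylated YAP in the cytoplasm, and Stk38l, a kinase related to LATS, had log2 fold changes of -1.4 and -1.25. The polarity gene Dlg1 rose (log2 fold change 0.76) and Patj fell (-1.65). Rassf5, Mob4 and Mink1 rose as well (log2 fold changes 0.6, 0.54 and 0.48). The calls of Mob4 and Mink1 were lost with an assumed coefficient of variation of 0.2.

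**Figure D4:**
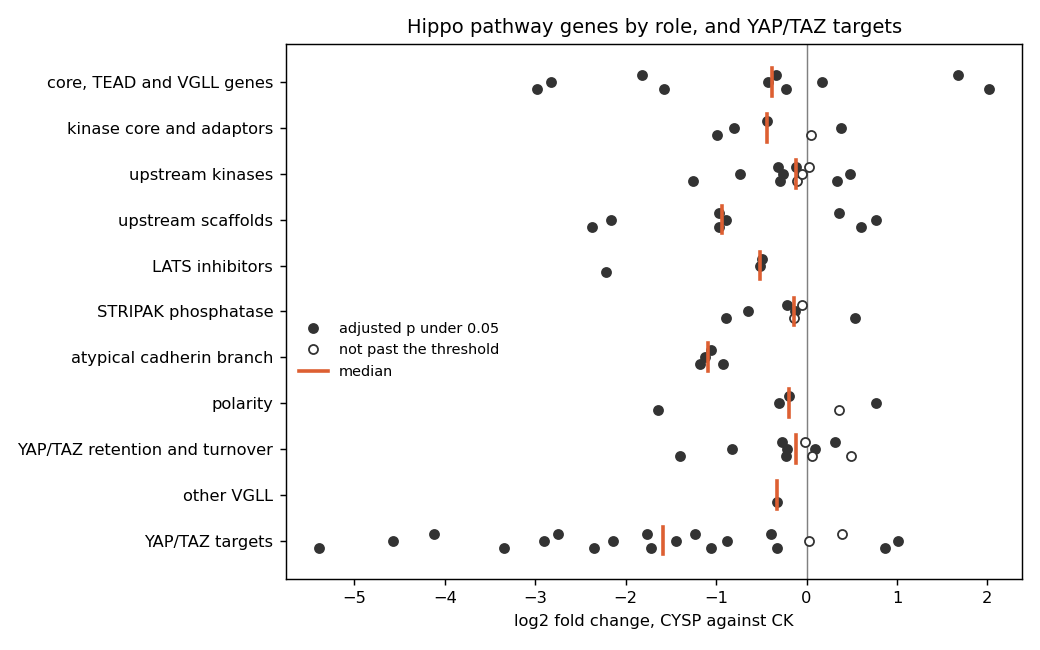
Log2 fold change in CYSP against CK of each tested gene, by role, with filled points for adjusted p under 0.05 and a bar at the median of each row. The core, TEAD and VGLL genes spread from -2.98 to 2.02, and the median of the 20 tested YAP/TAZ targets lies at -1.58.

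Of 21 YAP/TAZ targets listed, Lats2 left aside, 20 were tested. In CYSP 16 were lower and 2 higher, beside 37.8% and 38.2% of all tested genes, and 2 were not past the threshold. Of the 20, 12 fell by more than 2-fold, against 9.64% of all tested genes. This list too was chosen with earlier results of these data known. The matrix gene Ccdc80 had the largest decrease (log2 fold change -5.39, SE 0.027), followed by Ccn1 (-4.57) and Ccn2 (-4.12), whose promoters are printed above. F3, the tissue factor of coagulation, fell by 3.34 on the log2 scale, and Amotl2, an angiomotin that is both a target and a regulator of YAP, fell from 276 ± 4.33 to 36.7 ± 1.94 CPM. Dock5, an activator of Rac, and Nt5e, the surface enzyme CD73 of stromal cells, rose by log2 fold changes of 1.01 and 0.87. Ankrd1, a muscle ankyrin repeat gene, was under the count filter. It had 13, 4 and 9 counts in the CK samples and 3, 0 and 0 in the CYSP samples. Pooled, 26 counts in CK against 3 in CYSP put CK 7.93 times as high (95% Clopper-Pearson counting interval 2.43 to 40.9). That interval covers counting error only and leaves out the spread between samples.

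Among the 83 tested genes of these lists, the profile over the 6 samples nearest to that of each gene was found by Euclidean distance between log2 CPM centred on the gene's mean. The nearest to both Vgll3 and Tead4 was Amotl2, at distances of 0.12 and 0.51. Lats2 was nearest to Myof, a membrane repair gene of the target list, at 0.2, and Tead3 to Crim1, at 0.29. Tead2 and Dchs1 were nearest to each other, at 0.67, a larger distance than for any other of the 10 genes. With 2 groups of samples such a distance mostly compares fold changes.

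In the authors' deposited table all 10 genes have a log2 fold change of the same sign as here. Both come from the same samples, so this is no independent support. Of the 10, 9 have an adjusted p under 0.05 there, Yap1 being the exception. The share of all genes under 0.05 in the authors' values was not computed. With edgeR here 76.1% of all tested genes passed. The KEGG annotation in the authors' deposited table places 8 of the 10 genes in its main Hippo signaling pathway, without Vgll3 and Dchs1. Its Hippo pathway for multiple species holds 9 of the 10, with Dchs1 and without Vgll3.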

How the data were processed

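Poly(A)-enriched RNA of 6 samples was sequenced, per the labels' protocols. The tools named are fastp 0.18.0, RSEM, StringTie 1.3.1 and HISAT2, per the submitters' processing notes, which state no roles. For genome build, annotation, counting tool and strand use nothing is given in the sources used here. The deposited table holds raw counts per gene, FPKM per sample, the authors' mean FPKM, their log2 ratio and the authors' p-values, per the file headers. If RSEM made the deposited counts, they are rounded estimates.

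Samples were grouped by title. Counts were tested with edgeR 4.0.16 in R 4.3.3 (filterByExpr, TMM, robust quasi-likelihood F test, and glmTreat against a log2 fold change of 1), over 12623 genes with a threshold of 0.05. Standard errors derive from the fold change and F. The procedure was run on simulated data in which few genes changed. That does not check the scaling here, where most tested genes passed. Levels were compared between genes by the deposited FPKM, with sums and shares from CPM, which ignore gene length, as an alternative. Further alternatives used limma 3.58.1 and DESeq2 1.42.0, other scalings and filters, each sample left out, a replicate block and assumed coefficients of variation. With assumed coefficients of variation the likelihood ratio test of edgeR took the place of the F test. Members, lists and tests were chosen with earlier results of these data known. Beside the members, the naming rule takes up to 6 genes per list and direction with the largest change and a mean of at least 1 CPM, and the kinase core and VGLL genes. A selection is printed.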

Additional observations from a re-analysis of the deposited data

How the results depend on the processing

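An alternative fold change was kept with the same direction and call, and a sum, share or ratio when within the spread between samples. A count of genes was kept when within a set factor of the main count, which does not measure that spread. Of 462 alternative values of the comparisons, 430 were kept and 1 reversed. That was Yap1 with limma-trend on log2(TPM + 1), the FPKM rescaled to a fixed sum, an alternative chosen after seeing the data (log2 fold change -0.148, adjusted p = 0.005). On that scale 2895 of all genes rose, 5 of the other pathway genes rose, and 1 gene of the set rose beyond 2-fold. Wwtr1, Lats1 and Tead1 kept their direction and call there, with larger decreases (log2 fold changes -0.73, -0.63 and -0.54). Yap1 lost its call with limma-trend on log2(FPKM + 1) (log2 fold change 0.0799, adjusted p = 0.083) and on log2(FPKM + 0.1) (0.081, adjusted p = 0.082), and on the former 1 gene rather than 2 rose beyond 2-fold. With an assumed coefficient of variation of 0.2, Yap1 (0.17), Wwtr1 (-0.43), Lats1 (-0.34) and Tead1 (-0.23) lost their calls, as they did with 0.4, with the same fold changes. At 0.2 the lower genes of the set numbered 4, the other pathway genes 3 higher and 19 lower, and all genes 3102 higher and 2801 lower. At 0.4 these were 4, 0 and 6, and 1496 and 1209, and no YAP/TAZ target rose. Ywhaq and Sfn stand on several identifiers.

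Computed from CPM, the CYSP minus CK difference was -21.3 percentage points for the Tead3 share, -2.46 for the Tead4 share, -0.47 for the log2 TEAD sum and -0.0196 for the log2 sum of Yap1 and Wwtr1. With FPKM rescaled to a fixed sum the last 2 were -0.75 and -0.33. Mob1b, not called, changed sign with library size only (-0.035) on both FPKM scales (-0.034 and -0.036) and on the TPM scale (-0.26).

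No pairing by the shared replicate numbers was seen. Correlations of deviations were between -0.0089 and 0.0185 for samples with the same number and between -0.0156 and 0.0162 for those with other numbers. Such values cannot show that the cultures were not paired. In a fit with a replicate block, 3 genes of the set rose and 7 fell, as without it, and 4773 of all genes rose and 4712 fell. The depth limits Tead4, with 26 counts over the CYSP group, more than the other 9 genes.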
